A study of Mus musculus with 6 samples.

Results

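Autophagy genes build the vesicle that carries cell contents to the lysosome, and lysosome genes make the compartment that digests them. The set described here was 9 such genes: Vmp1, which moves lipids for the growing autophagosome membrane; Map1lc3b, which encodes the LC3B protein that coats that membrane; Sqstm1 (p62) and Retreg1, receptors that hold cargo; Lamp1 and Lamp2, glycoproteins of the lysosomal membrane; Ctsl and Ctsb, lysosomal proteases; and Atp6v1h, a subunit of the proton pump that acidifies the lysosome. They were chosen by name, with Vmp1 first, because of values measured in these same data, so every count below is a description and no test was made of them as a set. All 9 genes had splicing measured on both diets, out of 5980 genes that did. Retreg1 was listed under its older name Fam134b in the PSI tables and was matched by its Ensembl gene ID.

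The study sequenced mRNA from hepatocytes, the main cell of the liver, of male C57BL/6J mice. All mice ate chow with 13.5% fat until 8 weeks of age. They were then fed for 12 weeks either a low-fat diet (LFD, 10% fat) or a high-fat diet (HFD, 60% fat), a common model of obesity with fatty liver, and 3 libraries came from each diet. The splicing tables gave 1 pooled value per diet, so the spread between mice is unknown. Of the marker lists checked, 8 of 8 hepatocyte genes had a measured splice choice on both diets, against 3 of 8 macrophage genes on LFD and 2 of 8 on HFD, and on both diets 3 of 7 endothelial, 1 of 5 stellate, 1 of 5 bile duct and 0 of 3 lymphocyte genes. The marker check shows which genes were covered and not how much other cell types contributed, and their part in the results was not tested.

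In several of these genes splicing sets the protein: the last exon of Lamp2 chooses the tail that faces the cytosol, and the start of Retreg1 chooses between long and short receptors. A local splicing variation (LSV) is 1 exon with all the junctions, and any retained intron, that compete to leave or enter it. PSI is the share of the LSV's reads on 1 of these entries, from 0 to 1, and is given below with the standard deviation (SD) of its posterior, which covers reads and not mice. PSI is reported on a grid of 40 bins, so 0.0125 is the floor and 0.9875 the ceiling. Coordinates are mm10, and transcript names are those of GENCODE M21.

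The 9 genes had 37 LSVs with 102 entries on both diets. In 30 of the 37 LSVs (81.1%) a single entry held at least 0.95 of the reads on both diets, against 66.8% of all 26910 LSVs. The median over the 37 LSVs of the largest PSI difference was 3.45e-06, against 0.00681 over all LSVs. Both medians are below the bin width of 0.025, so the gap between them is not read as a difference in splicing. At the other end, 4 of the 37 LSVs (10.8%) held a difference of at least 0.1, against 4.50% of all LSVs. These 4 lay in Vmp1, Retreg1 and Atp6v1h. An entry was called where the diets differed by at least 0.2 in PSI and the 95% interval of the difference, from both posterior variances, left out 0. In the 9 genes 3 of 102 entries were called, 2 higher and 1 lower on HFD, beside 0.417% of all entries. The 3 were a pair in Vmp1 and 1 in Atp6v1h.

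The sequences that follow show the choices on which the values turn. They were read from the GENCODE M21 transcripts on GRCm38 (the same assembly as mm10), 5' to 3' along the transcript.

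In Vmp1 the choice lies just upstream of exon 11, at chr11:86586496-86586598 on the minus strand. Exon 11 can be joined to exon 10 across a 15409-base intron, or can be read through without a splice from the last 73 bases of that intron, at chr11:86586599-86586671. Both forms are printed with the first 30 bases of exon 11 in capitals, after the whole of exon 10 in the first and the 73-base intron segment in the second.
Vmp1 exon 10 to 11: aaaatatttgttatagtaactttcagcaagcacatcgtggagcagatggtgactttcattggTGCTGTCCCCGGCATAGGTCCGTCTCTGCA
Vmp1 intron segment to exon 11: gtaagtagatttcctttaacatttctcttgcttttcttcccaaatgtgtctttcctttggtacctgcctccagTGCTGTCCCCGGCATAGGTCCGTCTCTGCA
The segment ends in the bases ag that precede an acceptor. GENCODE holds it inside the 499-base first exon of the noncoding transcript Vmp1-206, which starts within intron 10.

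Of the reads entering Vmp1 exon 11, the splice from exon 10 had a PSI of 0.615 ± 0.0264 (LFD) and 0.382 ± 0.0304 (HFD). The 73-base segment held 0.381 ± 0.0263 on LFD and 0.618 ± 0.0304 on HFD. The major way into the exon was therefore the splice on LFD and the read-through on HFD. The segment's difference was 0.237 (95% interval 0.158 to 0.316) and that of the splice was -0.233 (-0.312 to -0.154), both over reads only. The posterior of the splice had the spread of about 339 independent reads on LFD. The same LSV is the only one of the 37 that the authors' deposited table of differing LSVs lists, beside 0.36% of all LSVs. In the authors' deposited table the splice held 0.618 and 0.383, and the segment 0.377 and 0.617, on LFD and HFD.

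The reads that left the remainder of the Vmp1-206 first exon went on into the 73-base segment at a PSI of 0.987 on both diets. The other exit, a splice from there straight to the last exon as in Vmp1-207, stood at the floor of 0.0125 on both. The other 3 LSVs of Vmp1 had 1 dominant entry on both diets. Among them, exon 1 was left at its annotated 5' splice site with a PSI of 0.966 ± 0.00952 (LFD) and 0.980 ± 0.0116 (HFD). A site 4 bases farther into the intron, not in GENCODE, held 0.0332 and 0.0191.

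The last intron of Vmp1 carried the other change in the gene. JUM, a program that scores splice events without an annotation, listed the 1044-base intron 11 at chr11:86585452-86586495. In the authors' deposited table its usage rose by 0.275 on HFD (JUM adjusted p = 8.04e-04). The PSI tables hold no entry for that intron. Their junction across it had a PSI of 0.9875 on both diets, in an LSV that sets it against another junction and not against the intron, so that value does not measure retention.

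The last exon of Vmp1 also contains a microRNA gene. The 92-base hairpin of Mir21a lies in the 3' untranslated region (UTR) on the same strand, and intron 11 ends 1293 bases before it. The intron 10 segment ends 2440 bases before the hairpin. The microRNA's mature forms are printed from RefSeq (GRCm38.p6) with the seed, bases 2 to 8, in capitals, because any transcript that reads to the annotated end of Vmp1 includes them. They lie at chr11:86584120-86584141 and chr11:86584082-86584103.
mmu-miR-21a-5p: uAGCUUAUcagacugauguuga
mmu-miR-21a-3p: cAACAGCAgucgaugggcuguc
The mature microRNA was not measured here. Vmp1-206 is annotated to end 861 bases before the hairpin.

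**Figure D1:**
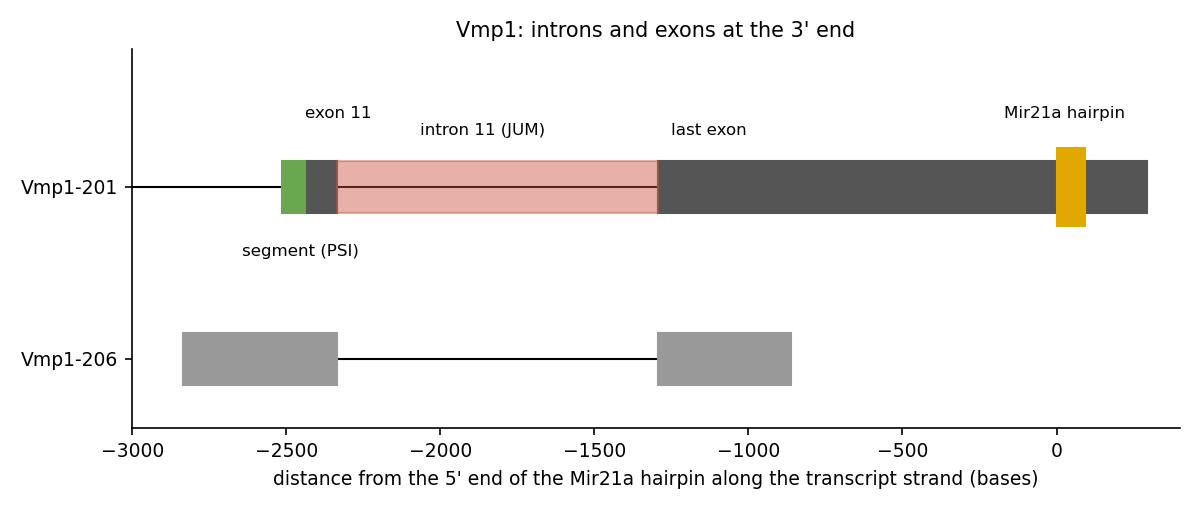
Map of the 3' end of Vmp1, with distance in bases from the 5' end of the Mir21a hairpin on the horizontal axis and a row each for the transcripts Vmp1-201 and Vmp1-206. Dark boxes are exons, the green box is the 73-base segment whose PSI went from 0.381 on LFD to 0.618 on HFD, the pale red box is intron 11, listed by JUM, and the yellow box is the hairpin.

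Among receptors, Retreg1 anchors in the endoplasmic reticulum and hands pieces of it to the autophagosome. The shared exon 4, at chr15:25964224-25964350, can be entered from the long form's exon 3 or from several alternative first exons that give shorter proteins. The long form (Retreg1-201) was at the floor, 0.0125, on both diets, so nearly all reads entered from the alternative starts. The first exon of Retreg1-207 had a PSI of 0.326 ± 0.0273 (LFD) and 0.441 ± 0.0407 (HFD). The exon of Retreg1-202, Retreg1-204 and Retreg1-205 held 0.348 ± 0.0276 and 0.401 ± 0.0402. On neither diet did these leading starts differ from each other beyond their posterior spread.

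The first exon of Retreg1-203 held 0.196 ± 0.0228 on LFD and 0.111 ± 0.0256 on HFD. A pair of sites not in GENCODE held 0.0694 and 0.0566 on LFD, and 0.0282 and 0.0175 on HFD. The difference between diets was 0.115 (0.0186 to 0.211) for the Retreg1-207 start and -0.0853 (-0.152 to -0.0180) for the Retreg1-203 start. Both intervals leave out 0 over reads, and both sizes are under the 0.2 needed for a call. In the LSV of its own first exon, where it competes with 1 intron entry, the Retreg1-207 junction held 0.961 ± 0.0187 on LFD and 0.958 ± 0.0239 on HFD, a difference of -0.00259 (-0.0620 to 0.0569). The posterior of the Retreg1-207 share at exon 4 had the spread of about 294 independent reads on LFD and 148 on HFD. Over all genes 32268 LSVs were listed for LFD and 27441 for HFD. A pair of Retreg1 LSVs was listed for LFD alone, and why they were missing on HFD was not tested. In one of them, the 175-base intron of Retreg1-202 between its first exons held 0.389 ± 0.0448, beside 0.564 ± 0.0458 for the splice to exon 4.

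JUM listed another intron of Retreg1, the 237-base intron 7 at chr15:25969861-25970097, within the coding sequence. Its usage rose by 0.250 on HFD in the authors' deposited table (JUM adjusted p = 0.0245). The PSI tables held no entry for it.

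Sqstm1 encodes p62, which binds ubiquitin on cargo and LC3 on the autophagosome, and also holds Keap1, the inhibitor of the stress factor Nrf2. Its last exon can be joined to either of 2 donors of the preceding exon, 114 bases apart, at chr11:50202399-50202512 on the minus strand. The stretch between them is 38 codons and keeps the frame. It is printed after 60 bases that both forms keep. Capitals mark the codons of the LC3-binding core, in the first block, and of the Keap1-binding core, in the second, as found by translating the transcript.
Sqstm1 alternative stretch: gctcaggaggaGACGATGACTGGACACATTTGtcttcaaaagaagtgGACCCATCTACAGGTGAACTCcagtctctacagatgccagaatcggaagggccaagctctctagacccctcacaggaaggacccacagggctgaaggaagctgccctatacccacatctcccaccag
The LC3-binding core ends 28 bases before the stretch and is kept by both forms. The Keap1-binding core spans the start of the stretch, and was not found in the translation of the shorter form.

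The longer form had a PSI of 0.706 ± 0.0223 (LFD) and 0.678 ± 0.0251 (HFD). The shorter form held 0.291 ± 0.0223 on LFD and 0.322 ± 0.0251 on HFD. The longer form thus led on both diets. Its difference was -0.0278, with an interval over reads from -0.0936 to 0.0379 that includes 0. The other 7 LSVs of Sqstm1 had PSI values at the floor or the ceiling on both diets, among them the intron entries of 87 and 184 bases in its coding region. JUM listed no event of Sqstm1.

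Lamp2 ends in 1 of 3 alternative last exons, each of which encodes its own membrane span and cytosolic tail. LAMP-2A is the receptor that takes up single proteins in chaperone-mediated autophagy, and LAMP-2B and LAMP-2C differ from it only in this exon. The coding part of each last exon is printed, with the last 5 codons in capitals. These codons carry the tyrosine-based signal that sorts the protein to lysosomes, and their translation was used to name the forms. They lie at chrX:38405435-38405571, chrX:38421715-38421851 and chrX:38402142-38402281 on the minus strand.
LAMP-2A: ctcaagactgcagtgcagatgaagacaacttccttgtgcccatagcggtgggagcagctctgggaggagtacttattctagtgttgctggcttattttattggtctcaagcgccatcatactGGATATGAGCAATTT
LAMP-2B: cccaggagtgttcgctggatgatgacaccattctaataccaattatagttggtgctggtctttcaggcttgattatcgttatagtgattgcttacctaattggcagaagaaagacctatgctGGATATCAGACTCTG
LAMP-2C: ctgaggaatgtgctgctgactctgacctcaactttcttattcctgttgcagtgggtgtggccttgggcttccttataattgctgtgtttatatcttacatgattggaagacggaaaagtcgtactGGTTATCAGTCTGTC
The printed coding parts were aligned base by base from end to end, with gaps allowed. Of the aligned positions, 59.2% were identical between LAMP-2A and LAMP-2B, 58.6% between LAMP-2A and LAMP-2C, and 64.1% between LAMP-2B and LAMP-2C.

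The LAMP-2A exon had a PSI of 0.702 ± 0.0218 (LFD) and 0.718 ± 0.0230 (HFD). The LAMP-2B exon held 0.280 ± 0.0214 on LFD and 0.259 ± 0.0225 on HFD. The LAMP-2C exon was near the floor, at 0.0127 ± 0.00197 and 0.0190 ± 0.0110. The order LAMP-2A, LAMP-2B, LAMP-2C was the same on both diets, with neighbours far apart against their posterior spread. Between diets the LAMP-2A share differed by 0.0157 (-0.0464 to 0.0778), the LAMP-2B share by -0.0206 (-0.0814 to 0.0402) and the LAMP-2C share by 0.00636 (-0.0155 to 0.0282). All 3 intervals include 0, so no shift among the last exons was detectable in this LSV, and over reads the intervals leave out a shift of 0.1 in any form. The posterior of the LAMP-2A share had the spread of about 441 independent reads on LFD and 381 on HFD.

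Seen from the LAMP-2A exon itself, the splice from the shared exon held 0.962 ± 0.00288 on LFD and 0.984 ± 0.00847 on HFD. That difference was 0.0220 (0.00446 to 0.0395), small in size. The LFD value lies near the middle of a bin 0.025 wide, and its SD is far smaller than the bin. It has the spread of about 4382 independent reads, against about 441 for the same junction in the LSV above. The interval is therefore too narrow, and whether it would include 0 over reads is not known. The rest, 0.0378 on LFD and 0.0158 on HFD, came from a site 210 bases inside the LAMP-2B exon that GENCODE does not list. JUM listed the Lamp2 end as a composite event of 5 parts, whose changes ran from -0.0276 to 0.0253 in the authors' deposited table (JUM adjusted p = 0.345). The table does not say which part is which junction. The other LSVs of Lamp2, at its first exons, stood at the floor or ceiling.

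**Figure D2:**
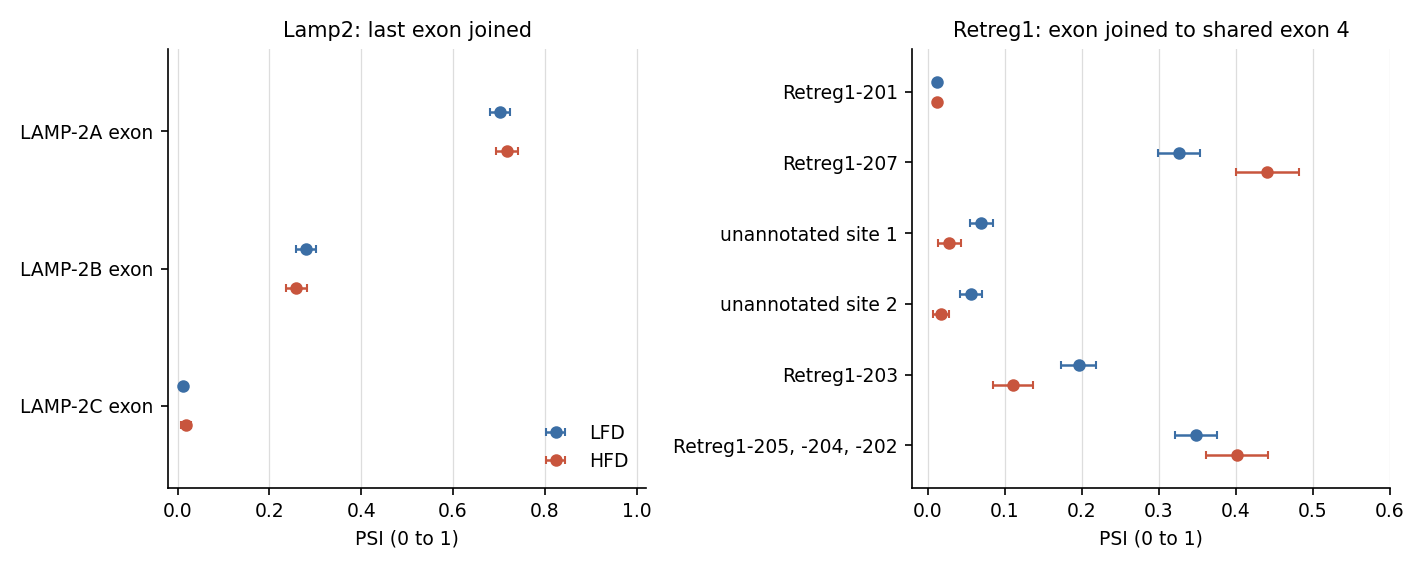
PSI on the horizontal axis, from 0 to 1 for Lamp2 and 0 to 0.6 for Retreg1, for LFD (blue) and HFD (red), with bars for 1 posterior SD. On the left, the 3 last exons of Lamp2 keep their order and nearly their shares, and on the right the Retreg1-207 start reads 0.326 on LFD and 0.441 on HFD while the long form stays at 0.0125.

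Lamp1, which with Lamp2 makes up much of the lysosomal membrane's protein, had 4 LSVs. Its exon 1 joined the annotated acceptor of exon 2 with a PSI of 0.975 ± 0.0131 (LFD) and 0.945 ± 0.0137 (HFD). An acceptor 3 bases upstream, not in GENCODE, held 0.0129 ± 0.00314 on LFD and 0.0544 ± 0.0137 on HFD. The upstream site's difference was 0.0415 (0.0139 to 0.0691), small beside the 0.2 needed for a call. Its LFD value lies near the floor with an SD far smaller than a bin. The interval may therefore be too narrow, and whether it would include 0 over reads is not known. The other 3 LSVs of Lamp1 were at the floor or ceiling, and JUM listed no event.

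Atp6v1h encodes the H subunit of the proton pump, which links the pump's catalytic head to its membrane part. The gene has a cassette exon of 54 bases, 18 codons, at chr1:5101070-5101123. It is printed in capitals with 15 bases of each neighbouring exon, since the largest PSI difference of the 9 genes was measured at its junction with the next exon.
Atp6v1h cassette exon: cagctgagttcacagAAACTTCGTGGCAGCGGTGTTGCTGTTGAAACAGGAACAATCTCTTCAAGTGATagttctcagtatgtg
The exon keeps the reading frame and is missing from Atp6v1h-204.

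Of the reads entering the next exon, the junction from the cassette exon held 0.701 ± 0.0276 on LFD and 0.965 ± 0.0143 on HFD, a difference of 0.264 (0.203 to 0.325). The junction that skips the exon held 0.0195 ± 0.0113 on LFD and 0.0320 ± 0.0143 on HFD. A site within the intron that GENCODE does not list, 3617 bases before the next exon, held 0.173 ± 0.0249 on LFD and stood at the floor on HFD. Another 5 unlisted sites held between 0.0125 and 0.0429 on LFD and were at the floor on HFD. Seen from the exon upstream, the junction into the cassette exon held 0.968 ± 0.0128 on LFD and 0.963 ± 0.0150 on HFD. The unlisted sites compete in the downstream view alone, and the views differ in that.

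Atp6v1h also chose between a pair of donors of its first exon, upstream of the start codon in the 5' UTR. The upstream donor held 0.839 ± 0.0263 on LFD and 0.962 ± 0.0182 on HFD, a difference of 0.124 (0.0609 to 0.186). The downstream donor, of Atp6v1h-207, held the remainder. JUM listed the same pair of donors with changes of 0.114 and -0.114 in the authors' deposited table (JUM adjusted p = 0.232), so the event did not pass its threshold. Both programs are taken to have read the same 6 libraries, so their values are not treated as independent.

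**Figure D3:**
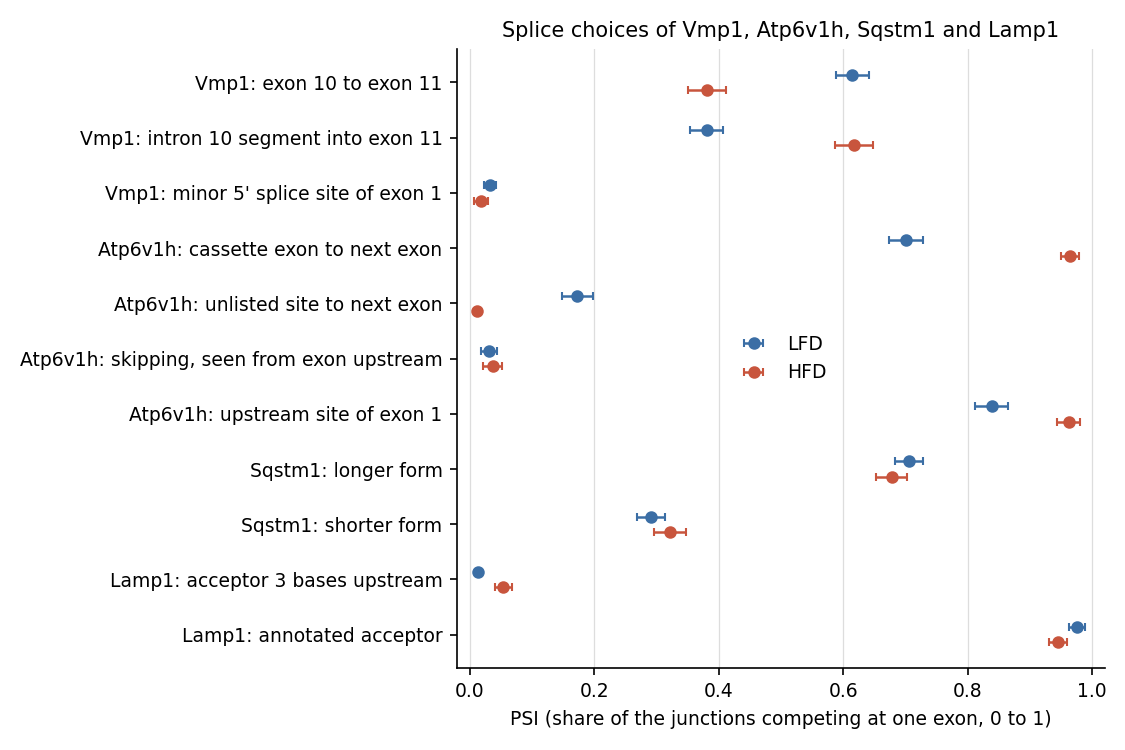
PSI from 0 to 1 on the horizontal axis for 11 splice choices of Vmp1, Atp6v1h, Sqstm1 and Lamp1, on LFD (blue) and HFD (red), with bars for 1 posterior SD. The Vmp1 pair trades places between diets (0.615 to 0.382 and 0.381 to 0.618), and the Atp6v1h cassette junction goes from 0.701 to 0.965, while each Sqstm1 form differs by at most 0.0305 between diets.

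Ctsl and Ctsb encode cathepsins L and B, which cut proteins inside the lysosome. All 6 LSVs of Ctsl had 1 dominant junction, with at least 0.95 of the reads on both diets. Its PSI intron entries were at or near the floor, the highest at 0.0212 ± 0.0119 on HFD. JUM listed 3 other introns of Ctsl, all inside the coding sequence, and none of them is an entry of the PSI tables. In the authors' deposited table intron 2, of 789 bases at chr13:64368239-64369027, rose by 0.0765 (JUM adjusted p = 2.19e-09). Intron 4, of 767 bases, rose by 0.0307 in the authors' deposited table (JUM adjusted p = 0.0135). Intron 7, of 1004 bases, had a change of 0.0477 in the authors' deposited table (JUM adjusted p = 0.0853). The Ctsl changes were thus several times smaller than those of Vmp1 and Retreg1, and the smallest adjusted p of the 9 genes belonged to 1 of them.

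Ctsb had a single LSV, in its 5' UTR, with PSI at the ceiling for the annotated junction on both diets. Map1lc3b had 3 LSVs, all with 1 dominant junction. A 147-base stretch just after its first exon, listed as an intron entry and only part of the annotated first intron, held 0.0125 on LFD and 0.0146 ± 0.00687 on HFD. JUM listed no event of Ctsb or Map1lc3b, as for Sqstm1 and Lamp1.

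In all, JUM listed 7 events in 5 of the 9 genes, and 4 of the 7, in Vmp1, Ctsl and Retreg1, passed an adjusted p of 0.05, beside 17.7% of all 470 listed events. All 470 have an unadjusted p under 0.05, so the listed events are themselves selected. Of the 7, 5 were retained introns, and all 5 had higher usage on HFD, beside 83.1% of the 118 retained introns listed. The 4 that passed were retained introns higher on HFD, beside 35.6% of the 118. Since the genes were chosen with this contrast in view, nothing is read from these shares. By size, the retained introns that passed and came nearest to that of Vmp1 were in Lpin2, a phosphatidate phosphatase, Tcp1, a chaperonin subunit, and Retreg1. Their rises in the authors' deposited table were 0.264, 0.251 and 0.250, compared over 1 value per gene (JUM adjusted p = 5.65e-08, 1.13e-04 and 0.0245).

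**Figure D4:**
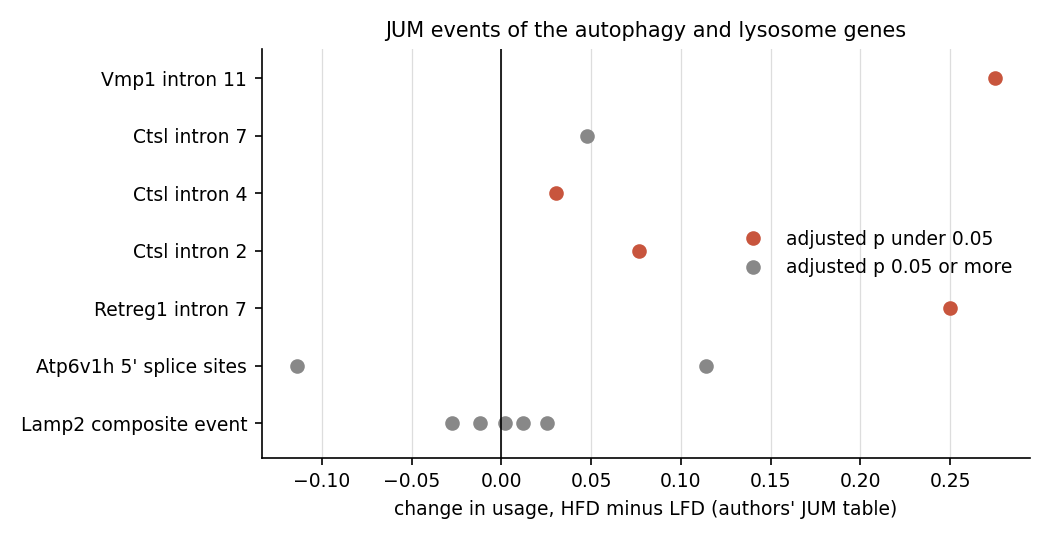
Change in usage, HFD minus LFD, of the 7 JUM events of the 9 genes, from the authors' deposited table, with 1 point per retained intron and 1 point per part of the other events. Red points have an adjusted p under 0.05 and grey points do not. The introns of Vmp1 (0.275) and Retreg1 (0.250) lie apart from those of Ctsl (0.0307 to 0.0765).

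A wider list of 158 autophagy and lysosome genes placed the 9 in their pathway. Of these, 111 had LSVs on both diets. By the PSI rule 3 of the 111 had a called entry, beside 2.31% of all 5980 genes: Vmp1, Atp6v1h and Ctsa. Their called entries were 3 higher and 1 lower on HFD. The authors' deposited table of differing LSVs lists 2 of the 111, Vmp1 and Ctsa, beside 1.72% of all 5980 genes. JUM listed events in 7 of the 158 genes, and 3 of the 7, Vmp1, Ctsl and Retreg1, had an event past the adjusted p, beside 18.8% of the 367 genes with a listed event. These events of the 3 genes were the retained introns given above, all higher on HFD, a direction shared by 83.1% of the retained introns listed. When each gene was given its largest PSI difference, the median was 0.0233 over the 111 genes and 0.0310 over all genes, and 11.7% of the 111 reached 0.1, against 14.3% of all.

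By role, the 10 measured genes of initiation, the kinases and lipid kinases that start autophagy, and the 11 of conjugation, which attach LC3 to lipid, had no called entry. Nor did the 15 measured receptors, the 7 of fusion, the 8 of the lysosomal membrane or the 11 regulators. The 8 genes of membrane growth, the 30 hydrolases and the 11 of the proton pump had 1 called gene each. Over all 5980 genes 2.31% had a called entry, so sets of this size are too small to tell the roles apart.

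The hydrolase was Ctsa, the protective protein that stabilises lysosomal sialidase and galactosidase. Its junction at chr2:164838949-164839151 held 0.226 ± 0.0174 on LFD and 0.628 ± 0.0263 on HFD. It was the largest PSI difference on the list, 0.401, but 3 of the entries it competes with have the exact ends of introns of Pltp, which overlaps Ctsa on the opposite strand. These 3 held 0.254, 0.261 and 0.249 on LFD, and 0.125, 0.132 and 0.114 on HFD. Among the entries that are not Pltp introns, the Ctsa junction held a share of 0.949 on LFD and 1 on HFD in the authors' deposited table. The 0.401 is thus a share taken beside reads on Pltp introns. Of the 90 junctions of the 9 genes, 0 have the ends of an intron on the opposite strand. Parts of Ctsl, Ctsb, Lamp1, Sqstm1, Map1lc3b and Atp6v1h overlap an annotated gene of the other strand, and whether strand was used in counting is not stated. The check of ends covers junctions only. Whether reads of the other strand entered any PSI intron entry of these genes was not tested. Of the 5 introns that JUM listed in the 9 genes, 0 overlap another annotated gene.

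**Figure D5:**
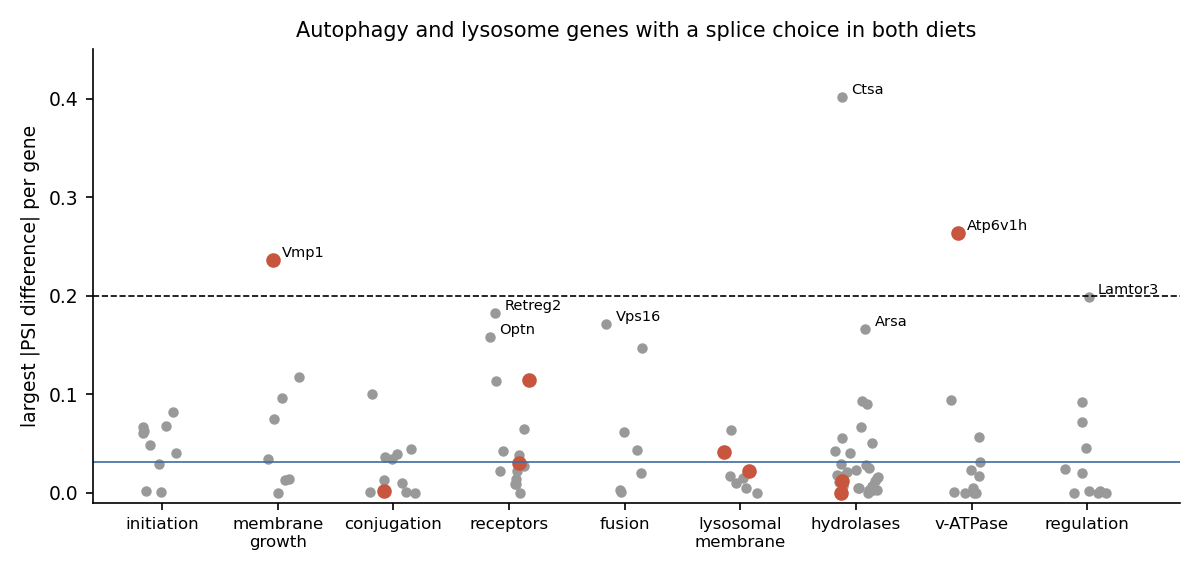
Largest absolute PSI difference between diets for each of the 111 measured genes (vertical axis, PSI units), arranged by role, with the 9 genes in red and the others in grey. The dashed line marks the 0.2 of the call and the blue line the median over all genes, 0.0310, and Ctsa, Atp6v1h and Vmp1 lie above the dashed line.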

How the data were processed

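Messenger RNA of hepatocytes was sequenced as stranded paired-end libraries, 3 per diet, per the labels' protocols. The submitters' processing notes name FastQC, STAR and mm10, with no versions. Per the file headers, MAJIQ's voila gave the deposited PSI and posterior variance per LSV, 1 pooled value per diet, a table of LSVs that differ, from a run marked strict, and JUM gave events with p, adjusted p and change. JUM's title line names NC livers, while its column reads HFD minus LFD, which was followed. The probability column of the table of differing LSVs goes against its heading and is not printed.

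LSVs were matched between diets by LSV ID, and genes by Ensembl ID, with pandas 2.3.3. Splice positions were annotated from GENCODE M21. Calls needed a PSI difference of 0.2 whose 95% interval, from both posterior variances taken as normal, left out 0. JUM calls needed an adjusted p of 0.05. Positions of JUM were moved to 1-based counting. An equivalent number of reads was taken from a beta distribution with the same mean and variance. The tables used give no read totals per library.

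Members and lists were chosen with earlier results of these data known. Named genes are the 9 members, the listed genes called by any of the 3 rules, and the 3 genes whose retained intron is nearest to that of Vmp1 in JUM change. The genes near the threshold in the closing section, and Pltp, fall outside that rule and were picked with their values in view. The alternatives tried were other thresholds, a minimum listed probability, matching by coordinates, and the value in another LSV or in the authors' deposited table. Ctsa without the Pltp introns was added after seeing the data.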

Additional observations from a re-analysis of the deposited data

How the results depend on the processing

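No paired analysis was possible because the deposited tables hold 1 pooled value per diet and no value per library, and for the same reason no replicate could be left out. Of 23 alternatives, 14 left the value or count nearly as it was. Small moves of a count were included, such as 3 to 2 list genes at a JUM adjusted p under 0.01. A PSI difference was included if it moved by less than the root of the summed posterior variances. The 14 also include a filter on a listed probability of at least 0.95. Every entry listed for Vmp1 and Ctsa met it, whatever its change, so that filter could not alter a count and shows no stability. With a minimum PSI difference of 0.1 the 9 genes had 7 called entries, and with 0.3 they had 0, against 3. On the wider list the called genes went from 3 to 12 at 0.1, to 1 at 0.3, and to 5 when junctions were matched by coordinates and averaged over LSVs. With a JUM adjusted p under 0.01, 2 of the 9 genes' events passed, against 4. The shares over all entries, genes and JUM events were not counted at these other settings. These counts therefore cannot be set against the whole series, and nothing is read from them about the genes. The Retreg1-207 start, 0.115 at exon 4, was -0.00259 in the LSV of its own first exon, where it competes with a single intron. The Vmp1 segment, 0.237 at exon 11, was 9.54e-06 in the LSV of the exon before it, where it is the dominant exit. The Ctsa junction's difference was 0.401 in the PSI tables, 0.413 in the authors' deposited table, and 0.0511 in the authors' deposited table without the Pltp introns. The changed counts follow from the thresholds, and for the coordinate matching the cause was not tested. Posterior spread covers reads and not mice, so no statement here extends to the variation between animals.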

Other observations

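Several genes of the wider list, named after their values were seen, came close to the PSI rule without a call. A junction of Lamtor3, part of the lysosomal scaffold for nutrient signalling, held 0.786 ± 0.0390 on LFD and 0.985 ± 0.00857 on HFD. In Retreg2, a relative of Retreg1, a junction held 0.398 ± 0.0257 and 0.581 ± 0.0361. In Vps16, a subunit of the complex that tethers vesicles to lysosomes, a junction held 0.986 ± 0.00566 and 0.815 ± 0.0443. In the autophagy receptor gene Optn a junction held 0.799 ± 0.0286 and 0.641 ± 0.0397. An intron entry of Arsa, which encodes arylsulfatase A, held 0.796 ± 0.0424 and 0.962 ± 0.0234.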
